A study of Mus musculus with 5 samples.

Results

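The libraries OVX_E2_P4 and OVX_E2, 1 of each, were 2 of the 5 single-cell RNA libraries of the series and compare the mammary gland with and without progesterone (P4) added to 17β-estradiol (E2), in mice given no flame retardants. The cells compared were chosen with 4 expression gates, each a limit on the summed UMIs (unique molecular identifiers, each 1 counted RNA molecule) of a few genes per 10000 UMIs of a barcode. The hormone-sensing gate required Prlr and Cited1 at 10 or more with Csn3 and Spp1 below 5. The alveolar gate required Csn3 and Spp1 at 10 or more with Prlr and Cited1 below 5. The basal gate required Krt14 and Krt17 at 8 or more, and the fibroblast gate required Col1a1, Col1a2, Col3a1 and Dcn at 50 or more with Epcam and Krt18 below 5. These gates held 633, 139, 64 and 813 barcodes of OVX_E2 and 814, 568, 131 and 574 barcodes of OVX_E2_P4, out of 14317 barcodes in the whole series.

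All mice were ovariectomized (OVX) females of the BALB/cj strain, so the ovarian hormones were absent from every group except as injected. Treatment began 20 weeks after the operation and lasted 1 week, and the labels give an age of 30 weeks. OVX_E2 received 1 µg of E2 per animal each day by intraperitoneal injection, OVX_E2_P4 received the same E2 with 0.1 mg of P4 per animal, and both were fed a control diet carrying the vehicle DMSO. The glands were collected a day after the last injection, and the number of mice behind each library is not given in the sources used here. OVX received vehicle only. OVX_E2_PBDE and OVX_E2_P4_PBDE received the same hormones with polybrominated diphenyl ethers (PBDEs), flame retardants, in the food at 7.1 mg/kg of BDE-47, 0.4 mg/kg of BDE-100 and 0.9 mg/kg of BDE-153.

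Estradiol acts through its receptor in the hormone-sensing luminal cells of the mammary duct and raises the progesterone receptor there. Progesterone then acts on the same cells, which release ligands such as RANKL, Wnt4, amphiregulin and calcitonin to their neighbours, and alveolar cells, basal (myoepithelial) cells and stroma respond. In pregnancy this exchange leads to side branching and to the alveoli that later make milk.

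With 1 library per group, no difference could be tested against the variation between animals, and every interval below covers counting error only. Barcodes were kept with at least 500 genes, at least 1000 UMIs and at most 10% of UMIs from mitochondrial genes, which left 2229 of 2233 barcodes of OVX_E2 and 3097 of 3107 of OVX_E2_P4, with 29590862 and 32648416 UMIs over all deposited barcodes and medians of 8698 and 7861 UMIs per barcode. The pair shared 5 barcode sequences, of which 1 fell in the same gate in both. Marker genes not used by the gates were highest in the gate of their name. The 11 L-Hor markers summed to 6098 and 6617 CPM (UMIs per 1000000 UMIs of the gate and library) in the hormone-sensing gate of OVX_E2 and OVX_E2_P4, against 791 and 628 in the alveolar gate and 2625 and 2217 in the fibroblast gate. The 11 L-Alv markers summed to 9102 and 11089 CPM in the alveolar gate, against 1261 and 983 in the hormone-sensing gate. The 12 basal markers reached 14733 and 14928 CPM in the basal gate, and the 12 fibroblast markers reached 32148 and 27388 CPM in the fibroblast gate. The gates were not pure. Fibroblast markers stood at 2208 CPM in the basal gate of OVX_E2 and 1159 CPM in that of OVX_E2_P4. Few barcodes lay just below the limit of the fibroblast gate on collagen and decorin genes (within 20%), 16 in OVX_E2 and 7 in OVX_E2_P4. More lay near that of the hormone-sensing gate, with 56 and 79 just below and 24 and 33 just above. The other limit of the fibroblast gate, on Epcam and Krt18, was not part of this count and is described with the fibroblast share below.

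The share of barcodes in the alveolar gate was 6.24% (5.27 to 7.32%, exact Clopper-Pearson 95% interval) in OVX_E2 and 18.3% (17.0 to 19.7%) in OVX_E2_P4, a difference of 12.1 percentage points (10.4 to 13.8). The hormone-sensing gate held 28.4% (26.5 to 30.3%) in OVX_E2 and 26.3% (24.7 to 27.9%) in OVX_E2_P4, and the interval of that difference, -4.58 to 0.335 points, included 0. It was -7.46 points with stricter gates and 0.300 points without the fifth of cells with most UMIs. The basal gate held 2.87% (2.22 to 3.65%) and 4.23% (3.55 to 5.00%). This basal difference of 1.36 points was -0.0512 points when barcodes above 5% mitochondrial UMIs were left out, and the median mitochondrial share of basal barcodes was 4.18% in OVX_E2 and 5.03% in OVX_E2_P4.

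The fibroblast gate held 36.5% (34.5 to 38.5%) of OVX_E2 and 18.5% (17.2 to 19.9%) of OVX_E2_P4, 17.9 points fewer with progesterone. Part of that difference came from the limit on Epcam and Krt18. Of the barcodes with collagen and decorin counts at 50 or more, 165 of 978 in OVX_E2 (16.9%) and 413 of 987 in OVX_E2_P4 (41.8%, 38.7 to 45.0%) were kept out of the gate because Epcam and Krt18 together reached 5. Without that limit the shares were 43.9% (41.8 to 46.0%) and 31.9% (30.2 to 33.5%), a difference of -12.0 points. The median sum of Epcam and Krt18 in these fibroblast-gene barcodes was 2.64 per 10000 in OVX_E2 and 4.40 per 10000 in OVX_E2_P4, so epithelial RNA in fibroblast barcodes was itself more abundant in the library with progesterone. Whether those barcodes held doublets or free RNA was not tested. Barcodes with both luminal programs made up 12.5% of OVX_E2 and 11.6% of OVX_E2_P4 and entered neither luminal gate.

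**Figure D1:**
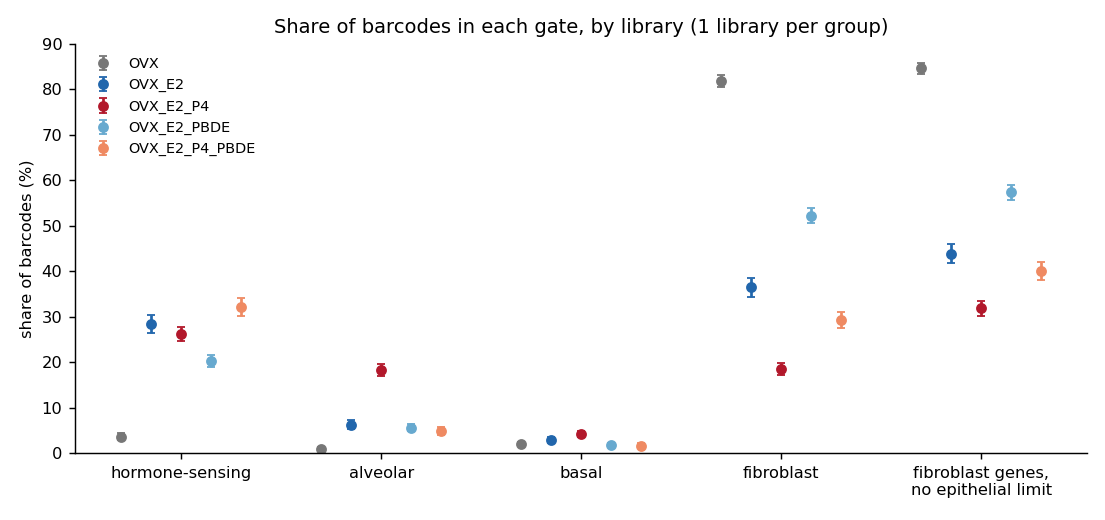
Share of quality-filtered barcodes (%, vertical axis) in each of the 4 gates and, at the far right, with fibroblast genes at 50 or more whatever their epithelial genes, for the 5 libraries; points are shares and bars exact 95% Clopper-Pearson intervals. The alveolar share of OVX_E2_P4, 18.3%, stands above the other 4 libraries, and the gap between OVX_E2 and OVX_E2_P4 in fibroblasts goes from -17.9 to -12.0 points without the epithelial limit.

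Genes were then compared by the ratio of CPM in OVX_E2_P4 to CPM in OVX_E2, with an exact conditional binomial 95% interval. Only genes with a sum of 50 or more UMIs in the gate, OVX_E2 and OVX_E2_P4 together, were counted. A ratio of 2 or more, or of 0.5 or less, was counted as past the fold. In the hormone-sensing gate 78 of 10240 genes were at least 2-fold higher with progesterone (0.762%) and 102 at least 2-fold lower (0.996%). The alveolar gate had 110 of 8670 higher (1.27%) and 144 lower (1.66%). The basal gate had 49 of 4227 higher (1.16%) and 58 lower (1.37%), and the fibroblast gate 80 of 8896 higher (0.899%) and 88 lower (0.989%). The median log2 ratio of all these genes lay between -0.07 and -0.10 in the 4 gates, and 39.6% of hormone-sensing, 39.2% of alveolar, 41.0% of basal and 39.3% of fibroblast genes were above 1. All but a few percent of the counted genes therefore differed by less than 2-fold between the libraries.

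A part of these genes rested on 1 cell. When the UMIs of a gene in the single richest cell of each library were set aside, 76 of the 78 higher and 97 of the 102 lower genes of the hormone-sensing gate still passed 2-fold, and 75 of 80 and 85 of 88 did in fibroblasts. In the alveolar gate 110 of 110 higher genes but 111 of 144 lower ones did. In the basal gate 48 of 49 higher genes but 37 of 58 lower ones did. In these 2 gates 1 cell was a larger part of OVX_E2 (139 and 64 cells) than of OVX_E2_P4 (568 and 131). Setting it aside therefore tended to raise ratios, also of widely spread genes. Alveolar Rps28 went from 1.35 to 1.37 and mt-Co1 from 1.21 to 1.24. How far the lower genes leaned on single barcodes cannot be told apart from this.

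Cebpb, which encodes the transcription factor C/EBPβ needed for alveolar development in the mammary gland, was higher with progesterone in every gate. Its level rose from 94.5 to 334 CPM in the hormone-sensing gate (ratio 3.53, 3.27 to 3.82), from 265 to 863 CPM in the alveolar gate (3.25, 2.99 to 3.54), from 409 to 1154 CPM in the basal gate (2.82, 2.51 to 3.19) and from 373 to 1243 CPM in fibroblasts (3.34, 3.17 to 3.51). The rise was spread over the cells. After each cell was thinned to 3000 UMIs, Cebpb was seen in 19.7% of hormone-sensing cells of OVX_E2 and 52.0% of OVX_E2_P4, and in 44.6% and 83.5% of alveolar cells (52.3% and 82.8%, and 83.5% and 97.4%, without thinning). The OVX library lay near OVX_E2, at 92.7 CPM in the hormone-sensing gate and 393 CPM in fibroblasts, while OVX_E2_PBDE, without progesterone, lay at 251 and 1107 CPM.

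Cebpb was 1 of 11 genes, of 3983 with enough UMIs in all 4 gates, that were at least 1.5-fold higher in each gate, and 3 genes were at least 1.5-fold lower in each. The other 10 were named because the list was short. They were Hspa1b, an inducible heat-shock protein of the Hsp70 family, Cdk2ap1, Lars2, Wdr89 and AY036118, and Gm2000, Rps18-ps3, Rpl23a-ps3, Rps27rt and Gm26619. Several of these are ribosomal protein copies and pseudogenes that share sequence with an expressed gene, and reads could be split between such copies. AY036118 had ratios between 1.83 and 1.98 in the 4 gates and between 2.02 and 2.42 in the pair of libraries with PBDEs. Gm2000, Cdk2ap1, Rps18-ps3, Rpl23a-ps3, Rps27rt, Wdr89 and Gm26619 were also above 1 in every gate of the pair with PBDEs. Gm26619 was at 3.82, 3.33, 4.80 and 3.45 there in the hormone-sensing, alveolar, basal and fibroblast gates. Lars2 was at 0.959 in the basal gate of that pair and above 1 in the others. Hspa1b had ratios of 1.81, 3.29, 4.13 and 2.65 in these gates without PBDEs, and 0.947, 0.545, 0.446 and 0.770 with PBDEs. The lower genes were Sik2, Gm17056 and Arhgap5.

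The hormone-sensing gate carried the largest single ratio among the leading genes that did not rest on 1 cell. Nppc, the precursor of C-type natriuretic peptide, had 14 UMIs in OVX_E2 and 359 in OVX_E2_P4, or 1.60 and 41.9 CPM, a ratio of 26.2 (15.4 to 48.3). It was seen in 3 of 633 cells of OVX_E2 (0.474%, 0.0978 to 1.38%) and 44 of 814 cells of OVX_E2_P4 (5.41%, 3.95 to 7.19%) after thinning, and in 0.948% and 8.48% without thinning. In fibroblasts the thinned shares were 0.369% and 1.05%. Of the 359 UMIs 29 were in 1 cell, and of the 14 UMIs of OVX_E2 8 were in 1 cell, and the ratio without the richest cells was 56.1. Its level was 3.23 CPM in OVX, 3.90 CPM in OVX_E2_PBDE and 2.58 CPM in OVX_E2_P4_PBDE, so OVX_E2_P4 stood above the other 4 libraries in this gate. The basal gate also held Nppc, with 6 UMIs in OVX_E2 and 37 in OVX_E2_P4, under the 50 needed to be counted.

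Other leading genes of the hormone-sensing gate were also low in UMIs. Cdkn2a, which encodes the cell-cycle inhibitors p16 and ARF, had 33 and 188 UMIs and a ratio of 5.81 (4.00 to 8.69), and its thinned share of cells was 0.948% in OVX_E2 and 5.41% in OVX_E2_P4. Trim15, a tripartite-motif protein, had 17 and 108 UMIs (ratio 6.48, 3.86 to 11.5), and Dusp2, a phosphatase of MAP kinases, had 34 and 160 (4.80, 3.30 to 7.17). Retnla, a secreted resistin-like protein, had 6 and 54 UMIs (9.18, 3.95 to 26.1), with at most 2 in any cell of OVX_E2_P4. Its log2 ratio of 3.20 was 0.89, under 2-fold, when the lowest level of the other gates was subtracted. Jchain, the joining chain of secreted immunoglobulins, had 79 and 954 UMIs and a ratio of 12.3, but 870 of the 954 came from 1 barcode and the ratio without it was 1.11 (0.807 to 1.54).

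Among the genes lower with progesterone in the hormone-sensing gate, Gpx3 had the most UMIs. This secreted glutathione peroxidase fell from 6061 to 2318 CPM (ratio 0.382, 0.376 to 0.389), with OVX at 868 CPM. Angptl4, a secreted inhibitor of lipoprotein lipase, fell from 62.7 to 19.7 CPM (0.315, 0.263 to 0.374), and its thinned share of cells from 15.6% to 5.28%. Aoc1, an amine oxidase that degrades histamine, had 116 UMIs in OVX_E2 and 19 in OVX_E2_P4 (0.167, 0.0971 to 0.273). Dpep2, a membrane dipeptidase, had 72 and 11 (0.156, 0.0745 to 0.296), and Matn4, a matrix protein of the matrilin family, 113 and 28 (0.253, 0.161 to 0.385). The casein gene Csn1s2b had 62 UMIs in OVX_E2 and 0 in OVX_E2_P4, 20.3-fold lower when 3 UMIs are set for the library at 0. It was seen in 6 of 633 cells of OVX_E2 after thinning, and 16 of the 62 UMIs were in 1 cell. Without the richest cells the interval of its ratio was 0 to 0.0852.

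Of the 16 progesterone-linked paracrine genes, 7 had 50 UMIs in the hormone-sensing gate. Wnt4, a secreted Wnt ligand and a target of the progesterone receptor, had 321 UMIs in OVX_E2 and 699 in OVX_E2_P4, or 36.7 and 81.5 CPM (ratio 2.22, 1.94 to 2.54). Its thinned share of cells was 12.3% (9.86 to 15.1%) and 21.4% (18.6 to 24.4%), against 2.46% and 3.14% of fibroblasts. Il17b also passed 2-fold, with 14 and 43 UMIs (3.13, 1.68 to 6.20), where 0.762% of all genes were at least 2-fold higher. Of these UMIs, 6 and 11 were in 1 cell. Il17b was mainly seen in the basal gate, with 148 and 736 UMIs, and the part of basal RNA in its ratio here was not tested. Areg, the amphiregulin gene and an estrogen target, did not pass 2-fold, with 1442 and 1385 CPM (0.961, 0.937 to 0.985). Tnfsf11, which encodes RANKL, was barely seen in either library, with 5 UMIs in OVX_E2 and 1 in OVX_E2_P4, and Calca, the calcitonin gene, had 1 and 4. A difference in these genes was not detectable at this depth, a day after the last injection.

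Of 14 receptor and cofactor genes in the hormone-sensing gate, 0 passed 2-fold in either direction, where 0.762% of all genes were higher and 0.996% lower, and the median log2 ratio was 0.00, beside -0.07 over all genes. Pgr, the progesterone receptor, was at 136 and 127 CPM (0.934, 0.859 to 1.01), and Esr1, the estrogen receptor, at 58.0 and 64.5 CPM (1.11, 0.984 to 1.26). Of 15 counted members of the estrogen response list, 1 was 2-fold higher, the amino acid transporter Slc7a5 (2.32, 1.75 to 3.11), and 2 were 2-fold lower, Pcp4 (0.485, 0.461 to 0.511) and Wisp2 (0.460, 0.356 to 0.591). Greb1 was low in both libraries, with 22 and 35 UMIs.

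Of 15 counted genes known as targets of the progesterone and glucocorticoid receptors, 2 were past 2-fold, both higher, and 7 were above 1, beside 39.6% of all genes. Mt2, a metallothionein, rose from 1267 to 2591 CPM (2.05, 2.00 to 2.09), and Ddit4, an inhibitor of mTOR signalling, had 149 and 384 UMIs (2.63, 2.17 to 3.20). Of 24 genes of the endoplasmic reticulum and secretion, 16 were above 1, beside 39.6% of all genes, with a median log2 ratio of 0.13, beside -0.07. Herpud1, which acts in the disposal of misfolded proteins, was the 1 past 2-fold (2.29, 2.04 to 2.59, where 0.762% of all genes were at least 2-fold higher), and the chaperone Hspa5 was at 1.65 (1.58 to 1.74). Vegfa, the vascular growth factor, was 2.11-fold higher (1.79 to 2.49) in the hormone-sensing gate and 2.22-fold higher (1.37 to 3.81) in the alveolar gate. Of 28 proliferation genes in the hormone-sensing gate, 2 were at least 2-fold higher and 3 at least 2-fold lower, beside 0.762% and 0.996% of all genes. Ube2c (3.18, 2.36 to 4.33) and Ccnb2 (2.23, 1.54 to 3.28), which act in mitosis, were higher, and the replication licensing genes Mcm5 (0.382, 0.262 to 0.550) and Mcm2 (0.421, 0.272 to 0.638) were lower with Hells, a chromatin remodeller. E2f1, a transcription factor of entry into the cycle and no member of that list, was at 0.265 (0.153 to 0.438). Barcodes with at least 20 UMIs of the proliferation list per 10000 were 32 of 633 (5.06%, 3.48 to 7.06%) in OVX_E2 and 22 of 814 (2.70%, 1.70 to 4.06%) in OVX_E2_P4. OVX had 0 of 114, OVX_E2_PBDE 0.980% and OVX_E2_P4_PBDE 1.58%, so OVX_E2 had the highest share.

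In the alveolar gate most milk genes were above 1 and all counted proliferation genes below 1. Lalba, which encodes α-lactalbumin and with it the making of lactose, had 151 UMIs in OVX_E2 and 1443 in OVX_E2_P4, or 65.0 and 199 CPM (ratio 3.06, 2.58 to 3.64). After thinning it was seen in 16 of 139 cells of OVX_E2 (11.5%, 6.72 to 18.0%) and 148 of 568 cells of OVX_E2_P4 (26.1%, 22.5 to 29.9%). It was seen in 0 of 813 and 0 of 574 thinned fibroblasts, with exact upper 95% bounds of 0.453% and 0.641%. OVX had 244 CPM of Lalba in its 33 alveolar cells, above OVX_E2_P4. The richest cells carried 36 of the 151 and 49 of the 1443 UMIs, and the ratio without them was 3.88. Of 13 milk and secretion genes with 50 UMIs, 11 were above 1, beside 39.2% of all genes, and 2 were at least 2-fold higher, beside 1.27%, Lalba and the casein Csn1s2a (2.20, 1.04 to 5.35). The median log2 ratio of the list was 0.44, beside -0.10 over all genes. Ltf, the lactoferrin gene, was 1.90-fold higher (1.75 to 2.07) and Wfdc18 1.75-fold higher (1.68 to 1.81), while Trf, the transferrin gene, was at 0.946 (0.921 to 0.972).

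Scd1, the desaturase that makes monounsaturated fatty acids, rose from 133 to 362 CPM in the alveolar gate (ratio 2.73, 2.42 to 3.08), and its thinned share of cells from 30.2% to 52.5%. Of the 25 counted genes of lipid synthesis, Scd1 and Acsl4 were the 2 at least 2-fold higher, beside 1.27% of all genes. In that list 0 were 2-fold lower, beside 1.66%, and the median log2 ratio was 0.01, beside -0.10 over all genes. The sterol genes Idi1 (0.516, 0.349 to 0.770) and Sqle (0.505, 0.343 to 0.750) lay near the lower limit. Klk10, a kallikrein-related protease, had 3 and 107 UMIs (11.4, 3.80 to 56.2) and was seen in 1 of 139 and 18 of 568 thinned cells. Hspa1b had 67 and 689 UMIs (3.29, 2.56 to 4.29), and the chemokine Ccl5 had 23 and 275 (3.82, 2.50 to 6.13), 66 of them in 1 cell. The log2 ratio of Ccl5, 1.94, was 0.98 with stricter gates and 4.10 with the lowest level of the other gates subtracted.

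All 27 counted members of the proliferation list were below 1 in the alveolar gate, 13 of them at least 2-fold lower, beside 1.66% of all genes, with a median log2 ratio of -0.97, beside -0.10. Mki67, a marker of cycling cells, went from 18.9 to 9.36 CPM (0.494, 0.333 to 0.740), Rrm2, which makes deoxynucleotides, from 24.5 to 6.61 CPM (0.269, 0.180 to 0.403), and Birc5, which acts in mitosis, had a ratio of 0.386 (0.311 to 0.480). E2f1 (0.233, 0.132 to 0.406) and the cyclin Ccnd1 (0.426, 0.387 to 0.469) were lower as well. Barcodes with at least 20 proliferation UMIs per 10000 were 26 of 139 in OVX_E2 (18.7%, 12.6 to 26.2%) and 44 of 568 in OVX_E2_P4 (7.75%, 5.68 to 10.3%). Leaving out these barcodes, which were picked by the same genes, left 82 instead of 144 genes at least 2-fold lower in the gate. The share of such barcodes was 6.06% (0.743 to 20.2%) in OVX, 9.18% (5.53 to 14.1%) in OVX_E2_PBDE and 9.48% (4.83 to 16.3%) in OVX_E2_P4_PBDE. OVX_E2 thus had the highest share, and OVX_E2_P4 lay among the other libraries.

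Among the other alveolar results, Reg3g, an antimicrobial lectin, had 93 UMIs in OVX_E2 and 29 in OVX_E2_P4, but 86 of the 93 were in 1 barcode and the ratio without the richest cells was 1.01. Ifrd2 (0.250, 0.186 to 0.335) and 2610305D13Rik (0.202, 0.125 to 0.324) were lower without such a cell. Gpx3 was at 583 and 239 CPM (0.409, 0.381 to 0.440). Its log2 ratio of -1.29 in the alveolar gate was -0.64 with stricter gates and -0.77 without the fifth of cells with most UMIs, both under 2-fold. Areg was at 211 and 106 CPM (0.501, 0.447 to 0.562). Of 23 interferon and antigen presentation genes, 19 were above 1, beside 39.2% of all genes, and 5 were at least 2-fold higher, beside 1.27%, with a median log2 ratio of 0.42. Irf7, an interferon-response transcription factor, had 11 and 99 UMIs (2.88, 1.54 to 5.95), and B2m, the light chain of MHC class I, was 1.54-fold higher (1.45 to 1.62). The lineage genes Elf5 (1.05, 0.916 to 1.21) and Kit (1.34, 1.07 to 1.69), regulators of alveolar progenitors, stayed within 1.5-fold.

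The 250 bases before the RefSeq start of 4 leading raised genes are shown as a description. The genes are Nppc of the hormone-sensing gate, Lalba and Klk10 of the alveolar gate and Cebpb of all gates. A link between these bases and the ratios was not tested. The genes were picked after their values were known. Capitals mark AGAACA, a half-site bound by receptors of the progesterone and glucocorticoid class, and TTCNNNGAA, the motif of STAT factors, each searched on both strands. In build GRCm38.p6 they lie at chr1:86670574-86670823 on the minus strand (Nppc), chr2:167688665-167688914 on the plus strand (Cebpb), chr15:98482684-98482933 on the minus strand (Lalba) and chr7:43780804-43781053 on the plus strand (Klk10), and are printed 5′ to 3′ along the gene.
Nppc: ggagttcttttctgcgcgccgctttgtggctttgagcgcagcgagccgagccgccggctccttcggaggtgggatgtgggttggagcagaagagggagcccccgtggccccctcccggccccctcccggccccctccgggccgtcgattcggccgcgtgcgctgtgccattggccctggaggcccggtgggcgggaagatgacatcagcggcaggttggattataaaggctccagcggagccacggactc
Cebpb: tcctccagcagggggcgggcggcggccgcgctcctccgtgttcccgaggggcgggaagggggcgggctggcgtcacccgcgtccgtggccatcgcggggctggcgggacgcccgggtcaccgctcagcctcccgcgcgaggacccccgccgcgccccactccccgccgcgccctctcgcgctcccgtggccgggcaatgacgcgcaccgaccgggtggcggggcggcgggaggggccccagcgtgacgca
Lalba: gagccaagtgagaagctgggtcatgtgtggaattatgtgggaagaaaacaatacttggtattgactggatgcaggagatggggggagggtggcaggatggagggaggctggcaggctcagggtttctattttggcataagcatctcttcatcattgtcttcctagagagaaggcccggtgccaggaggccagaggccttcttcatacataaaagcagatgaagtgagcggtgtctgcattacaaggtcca
Klk10: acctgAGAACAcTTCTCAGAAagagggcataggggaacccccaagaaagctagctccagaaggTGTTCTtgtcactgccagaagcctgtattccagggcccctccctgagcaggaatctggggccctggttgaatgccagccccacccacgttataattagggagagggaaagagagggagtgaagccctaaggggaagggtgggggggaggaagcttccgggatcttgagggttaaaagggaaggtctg
Klk10 had 2 half-sites and 1 STAT motif in this window, and the windows of Nppc, Cebpb and Lalba had neither. Windows of Dusp2, Crabp1 and Gpx3 were also searched and are not printed. Those of the raised genes Dusp2 and Crabp1 had neither motif, and that of the lowered gene Gpx3 had 1 half-site. Over 32851 windows of the same length, 16.1% held the half-site and 7.02% the STAT motif. A match is a description of letters and says nothing about binding in these cells.

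**Figure D2:**
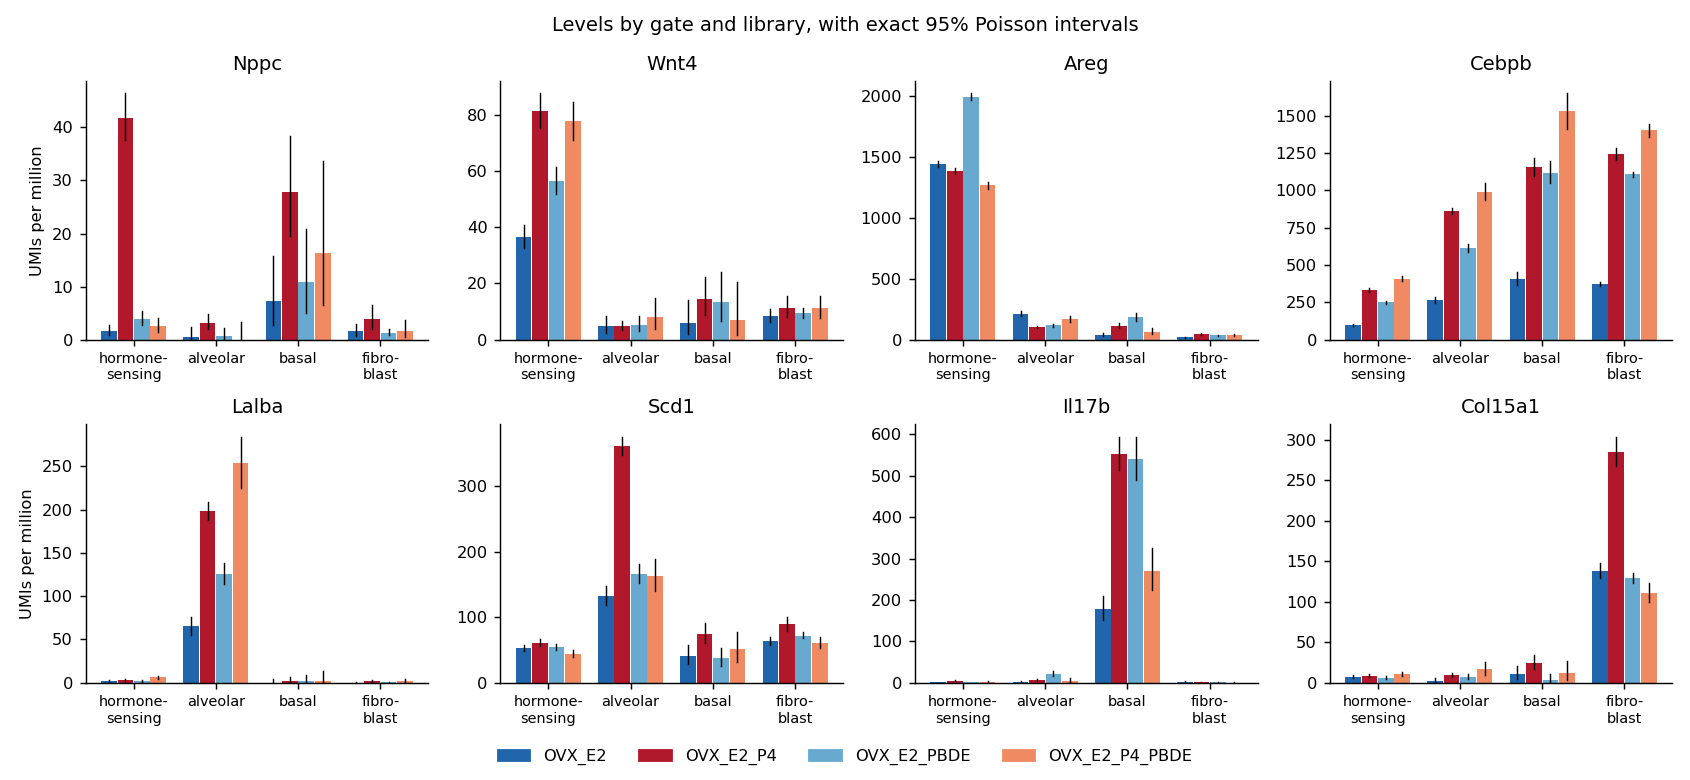
Level (CPM, vertical axis, starting at 0) of 8 genes by gate (horizontal axis) in OVX_E2, OVX_E2_P4, OVX_E2_PBDE and OVX_E2_P4_PBDE; bars are summed levels and lines exact 95% Poisson intervals of the count. Nppc stands out in the hormone-sensing gate of OVX_E2_P4 (41.9 CPM), Lalba is higher with progesterone in both alveolar pairs, and Scd1 in the alveolar gate and Col15a1 in the fibroblast gate are at least 2-fold higher with progesterone in the pair without PBDEs alone.

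In the basal gate, which rested on 64 and 131 cells, 1.16% of all genes were at least 2-fold higher and 1.37% at least 2-fold lower. Of 14 contractile genes, 0 passed 2-fold, 10 were above 1, beside 41.0% of all genes, and the median log2 ratio was 0.09, beside -0.08. Acta2, smooth muscle actin, was at 7171 and 6544 CPM (0.913, 0.883 to 0.943), and Oxtr, the oxytocin receptor that drives milk ejection, at 127 and 130 CPM (1.03, 0.802 to 1.32). Of 21 basal identity genes, 0 passed 2-fold, and Col4a2, a collagen IV chain of the basement membrane, was at 1.92 (1.54 to 2.41).

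Il17b, a secreted cytokine, was higher and was mainly seen in this gate, with 148 UMIs in OVX_E2 and 736 in OVX_E2_P4, or 178 and 553 CPM (ratio 3.10, 2.60 to 3.73). It was seen in 43.8% (31.4 to 56.7%) and 58.8% (49.8 to 67.3%) of thinned basal cells and in 0 to 1.76% of the thinned cells of the other gates. OVX had 101 CPM in the basal gate and OVX_E2_PBDE, without progesterone, had 540 CPM. Hspa1b rose from 72.3 to 299 CPM (4.13, 3.14 to 5.51), and its close copy Hspa1a was 2.13-fold higher (1.77 to 2.57). Rgcc, a regulator of the cell cycle, had 11 and 81 UMIs (4.59, 2.44 to 9.56), 21 of the 81 in 1 cell.

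Some luminal genes were also higher in the basal gate. Ltf had 11 and 142 UMIs (8.05, 4.37 to 16.5), Wfdc18 24 and 255 (6.63, 4.35 to 10.5), Areg 33 and 152 (2.87, 1.96 to 4.32) and the luminal keratin gene Krt19 136 and 465 (2.13, 1.76 to 2.60). Others were below 1, with Ly6a at 0.579 (0.451 to 0.741), Cd14 at 0.607 (0.376 to 0.981) and Trf at 0.922 (0.773 to 1.10), and 2 of 6 counted L-Alv and 2 of 5 counted L-Hor markers were below 1. In OVX_E2, 24 of 38 Cd14 UMIs and 86 of 213 Trf UMIs were in 1 cell. Without the richest cells Cd14 was at 1.16 (0.583 to 2.40) and Trf at 1.38 (1.11 to 1.71). Ly6a stayed below 1 without them, at 0.683 (0.520 to 0.899). Wfdc18 had 84 of its 255 UMIs in 1 cell, and with barcodes of exactly 1 gate its log2 ratio was 0.95 instead of 2.73. The 11 L-Alv markers summed to 1477 CPM in the basal gate of OVX_E2, with 3 at 0, and to 1901 CPM in that of OVX_E2_P4, with 0 at 0. Their part in these ratios was not tested.

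The genes most lowered in the basal gate were mainly genes of other cell types, and several had many of their OVX_E2 UMIs in 1 barcode. Fabp4, a fatty-acid carrier of adipocytes and endothelium, had 62 UMIs in OVX_E2, 44 of them in 1 barcode, and 11 in OVX_E2_P4. Its ratio was 0.111, and 0.312 (0.123 to 0.731) without the richest cells. Cd74, the MHC class II invariant chain, had 127 and 43, with 92 of the 127 in 1 barcode and a ratio of 0.713 (0.441 to 1.16) without the richest cells. Ccl5 had 69 of its 72 UMIs of OVX_E2 in 1 barcode. Lpl, lipoprotein lipase, had 118 and 48 UMIs (0.254, 0.177 to 0.358) and 0.434 without the richest cells, and the monocyte chemokine Ccl7 had 87 and 36 (0.258) and 0.499 without them. With barcodes of exactly 1 gate the log2 ratio of Lpl was -0.29 instead of -1.98, and with stricter gates that of Ccl7 was 0.03 instead of -1.95. Clec3b, a fibroblast marker, had 167 and 51 UMIs (0.190, 0.136 to 0.262) and 0.227 without the richest cells. In this gate 9 of 10 counted fibroblast markers were below 1, where 41.0% of all genes were above 1. The matrix protease list, with 10 of 12 members below 1 and a median log2 ratio of -0.60, turned to 0.06 over 9 members with barcodes of exactly 1 gate. Socs3, an inhibitor of cytokine signalling, was 0.538 (0.480 to 0.603) and Btg2, an immediate early gene, 0.573 (0.494 to 0.664).

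In the fibroblast gate most matrix genes other than the gate genes were above 1. The gate genes Col1a1, Col1a2, Col3a1 and Dcn were not counted and went the other way. Their median sum per barcode of the gate was 248 per 10000 UMIs in OVX_E2 and 205 per 10000 in OVX_E2_P4. Of 31 counted matrix genes, 28 were above 1, beside 39.3% of all genes, and the median log2 ratio was 0.27, beside -0.08. Of these, 3 were at least 2-fold higher, beside 0.899% of all genes, namely Col15a1, Col12a1 and Col8a1. Col15a1, a collagen of basement membrane zones, had 814 UMIs in OVX_E2 and 966 in OVX_E2_P4, or 139 and 286 CPM (2.06, 1.88 to 2.27), and its thinned share of cells was 22.0% and 35.4%. Eln, which encodes elastin, was at 198 and 384 CPM (1.94, 1.79 to 2.10). Against the trend, Pcolce, an enhancer of procollagen processing, was at 0.700 (0.663 to 0.739) and Fbln1 at 0.822 (0.754 to 0.895). Of 21 matrix proteases and their inhibitors, 7 were above 1, beside 39.3% of all genes. Of these 21, 0 were past 2-fold, where 0.899% of all genes were higher and 0.989% lower. The share of mitochondrial UMIs differed here too, with medians of 1.31% in OVX_E2 and 2.02% in OVX_E2_P4, and 77 of 79 ribosomal protein genes were above 1 with a median log2 ratio of 0.22. Fewer UMIs were found per fibroblast barcode in OVX_E2_P4, with medians of 6698 and 5525. The part of these differences in the matrix result was not tested.

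Fibroblasts secrete growth factors that act on the epithelium. Of 27 stromal growth factor genes, 1 was at least 2-fold higher, beside 0.899% of all genes, and 0 were at least 2-fold lower, beside 0.989%. Igf1 was at 216 and 206 CPM (0.954, 0.869 to 1.05) and Fgf10, a growth factor of mammary budding, at 22.3 and 18.6 CPM (0.835, 0.608 to 1.14). Hgf had 41 and 35 UMIs (1.48, 0.917 to 2.39). Igfbp2, a binding protein of insulin-like growth factors, was the 1 that rose, from 51.4 to 140 CPM (2.73, 2.35 to 3.16). The Wnt inhibitors Sfrp2 (0.690, 0.651 to 0.731) and Sfrp4 (0.673, 0.640 to 0.708) were lower by less than 2-fold.

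Crabp1, a binding protein of retinoic acid, had 244 UMIs in OVX_E2 and 398 in OVX_E2_P4 (ratio 2.83, 2.41 to 3.34), with 43 and 112 of these in 1 cell, and 2.47 without the richest cells. Stra6, the retinol importer, had 24 and 46 UMIs (3.33, 1.99 to 5.70), and the retinaldehyde dehydrogenase Aldh1a1 was at 0.578 (0.470 to 0.706). Mrgprg, a G-protein-coupled receptor gene, had 74 and 172 UMIs (4.04, 3.06 to 5.38), with thinned shares of 3.20% and 11.5%. Jchain again rested on 1 barcode, with 257 of 290 UMIs, and had a ratio of 1.33 (0.821 to 2.15) without it.

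Wfdc18 (4.02, 2.98 to 5.47) and Fcgbp (3.15, 2.36 to 4.23) were higher in fibroblasts with at most 2 UMIs in any cell, and both are genes of the alveolar gate. The 11 L-Alv markers summed to 481 CPM in fibroblasts of OVX_E2 and 638 CPM in those of OVX_E2_P4, and the gate genes Csn3 and Spp1 were 3.98-fold and 4.61-fold higher there. Epithelial genes that are not alveolar were higher in fibroblasts too, with Cdh1 at 2.95, Cldn7 at 2.31 and Areg at 2.22. Of 11 counted junction and keratin genes, 8 were above 1 and 3 below, beside 39.3% of all genes above 1. The part of free alveolar or other epithelial RNA in these ratios was not tested.

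Of 29 interferon and antigen presentation genes in fibroblasts, 9 were above 1, beside 39.3% of all genes, and 3 were at least 2-fold lower, beside 0.989%, with a median log2 ratio of -0.27, beside -0.08. Isg15, a ubiquitin-like protein induced by interferon, had 593 UMIs in OVX_E2, 124 of them in 1 cell, and 137 in OVX_E2_P4 (0.401, 0.331 to 0.484, and 0.470 without the richest cells), while in the alveolar gate it was at 9.90 and 20.9 CPM. Usp18, which removes Isg15 from proteins, had 174 and 36 UMIs (0.359, 0.244 to 0.517), and Ifit3 123 and 25 (0.353, 0.220 to 0.546). The thinned share of fibroblasts with Isg15 was 11.7% (9.56 to 14.1%) and 9.76% (7.45 to 12.5%). With thinned cells the log2 ratio of Isg15 was -0.92 instead of -1.32, under 2-fold. Irf7 had 2.88 in the alveolar gate and 0.457 in fibroblasts. The difference between gates was not tested.

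Ccl12, a monocyte chemokine, had 74 UMIs in OVX_E2, 55 of them in 1 barcode, and 5 in OVX_E2_P4. Gm17056 (0.329, 0.257 to 0.419), Gm15261 (0.366, 0.242 to 0.538) and Sh2d4a (0.221, 0.0913 to 0.462) completed the lowest 6 genes of fibroblasts and were spread over cells, with at most 9 UMIs in any of them. Acta2 was lower in fibroblasts, at 77.6 and 37.8 CPM (0.488, 0.398 to 0.594). Of its 456 UMIs in OVX_E2, 196 were in 1 cell, and the ratio without the richest cells was 0.762 (0.606 to 0.953). In the same gate the 12 basal markers summed to 292 and 191 CPM.

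**Figure D3:**
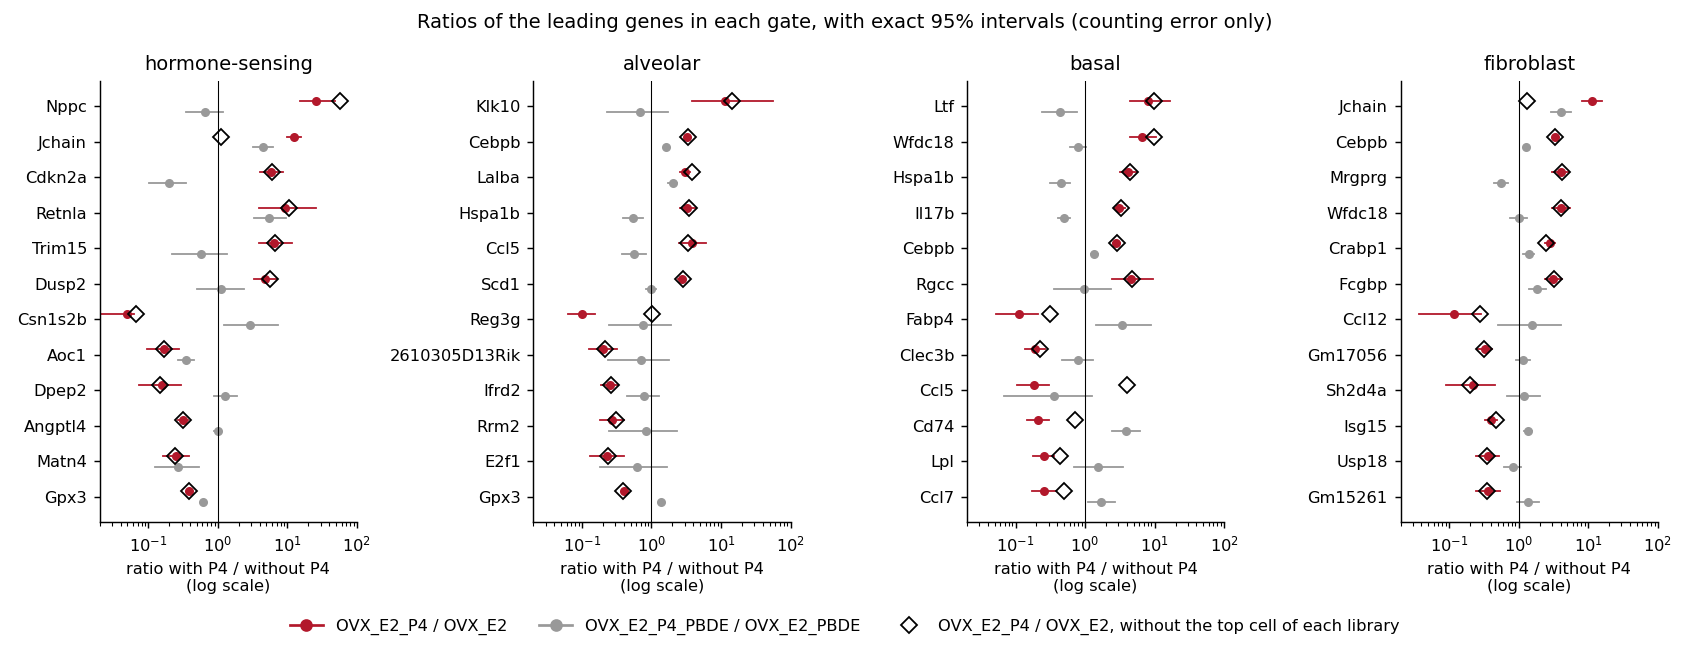
Ratio with progesterone over without (horizontal axis, log scale) of the 6 highest and 6 lowest genes of each gate, with exact 95% intervals; red is OVX_E2_P4 over OVX_E2, grey is OVX_E2_P4_PBDE over OVX_E2_PBDE, and open diamonds are the red ratios without the richest cell of each library. Jchain moves from 12.3 to 1.11 in the hormone-sensing gate and Reg3g to 1.01 in the alveolar gate without that cell, and the grey ratio of Nppc lies at 0.662 beside a red one of 26.2.

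**Figure D4:**
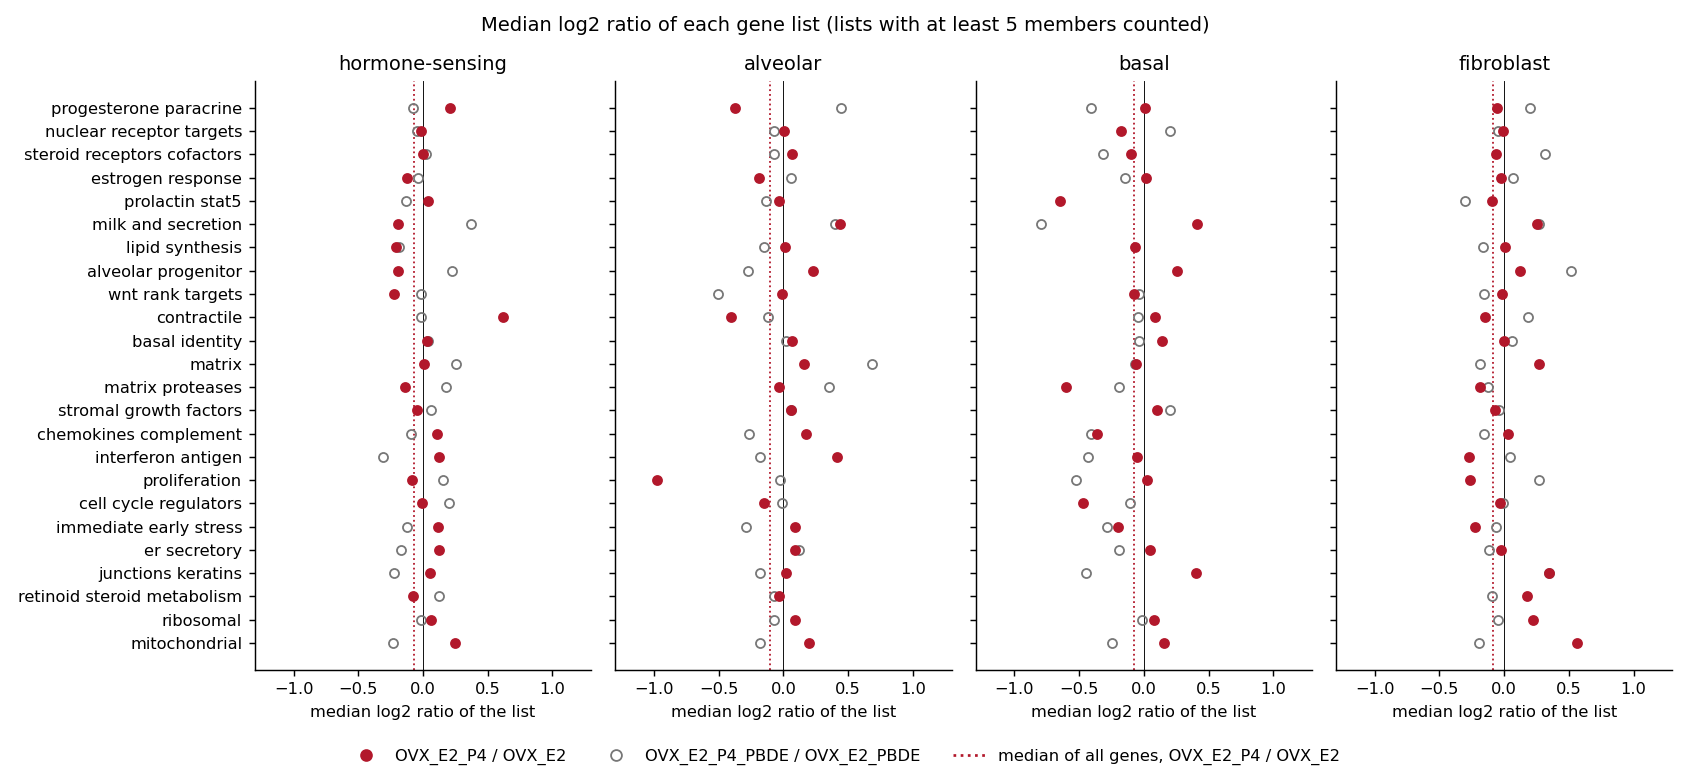
Median log2 ratio (horizontal axis) of the counted members of each gene list with 5 or more of them, by gate, for OVX_E2_P4 over OVX_E2 (red) and OVX_E2_P4_PBDE over OVX_E2_PBDE (open), with the median of all genes as a dotted line. The proliferation list in the alveolar gate lies at -0.97 and the matrix list in fibroblasts at 0.27, and the open points of those lists lie at -0.03 and -0.19.

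The same addition of progesterone was made in mice fed PBDEs, in a pair of libraries that shares none with the pair above. There 1.2% of 10027 hormone-sensing genes were at least 2-fold higher and 0.489% at least 2-fold lower, 0.998% and 1.16% of 6011 alveolar genes, 1.1% and 2.31% of 2637 basal genes and 1.65% and 0.792% of 9970 fibroblast genes. Among genes with at least 200 UMIs in both pairs, the log2 ratios of the pairs correlated across genes with Pearson r of 0.069 (Spearman 0.051) over 5855 hormone-sensing genes, 0.062 (0.025) over 2023 alveolar genes, 0.025 (0.064) over 659 basal genes and 0.233 (0.213) over 4484 fibroblast genes. Genes are not independent replicates, and each ratio of a pair rests on the same 2 libraries.

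The genes past 2-fold were therefore mostly not past it in the other pair. Of the hormone-sensing genes at least 2-fold higher and deep enough in both pairs, 22 of 56 were above 1 and 5 were at least 2-fold higher with PBDEs. Of all genes there, 48.6% were above 1 and 1.2% at least 2-fold higher. Of the alveolar ones, 18 of 34 were above 1 and 4 at least 2-fold higher, beside 51.5% and 0.998% of all genes. Of the basal ones, 6 of 20 were above 1 and 0 at least 2-fold higher, beside 44.2% and 1.1% of all genes. In fibroblasts 60 of 79 were above 1 and 19 at least 2-fold higher, beside 47.5% and 1.65% of all genes. Of the genes at least 2-fold lower, 39 of 80 hormone-sensing, 26 of 53 alveolar, 13 of 25 basal and 48 of 83 fibroblast genes were below 1 with PBDEs, and 3, 1, 2 and 3 of these were at least 2-fold lower. Of all genes in those gates with PBDEs, 48.6%, 51.5%, 44.2% and 47.5% were above 1. The share of all genes below 1, to be set beside these counts, is therefore the remainder. At least 2-fold lower were 0.489%, 1.16%, 2.31% and 0.792% of all genes.

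Some named genes had the same direction in both pairs. Lalba was 2.01-fold higher (1.73 to 2.35) in the alveolar gate of the pair with PBDEs, Wnt4 1.37-fold higher (1.22 to 1.55) in the hormone-sensing gate, Aoc1 at 0.348 (0.264 to 0.454), Matn4 at 0.271 (0.123 to 0.537) and Gpx3 at 0.608 (0.600 to 0.616). Cebpb was 1.63-fold, 1.62-fold, 1.37-fold and 1.27-fold higher in the hormone-sensing, alveolar, basal and fibroblast gates. Others did not. Nppc was at 0.662 (0.351 to 1.20), Angptl4 at 0.992 (0.881 to 1.12) and Scd1 at 0.984 (0.828 to 1.16). The alveolar share also differed between the pairs. It was 0.639 points lower (-1.80 to 0.562) with progesterone in the pair with PBDEs, while the fibroblast share was lower in both, by 22.9 points with PBDEs. The median log2 ratio of the milk list in the alveolar gate was 0.40 in the pair with PBDEs, that of the proliferation list -0.03, and that of the matrix list in fibroblasts -0.19. For the interferon and antigen presentation list it was -0.18 in the alveolar gate and 0.04 in fibroblasts. For the list of the endoplasmic reticulum and secretion it was -0.17 in the hormone-sensing gate. These 3 values and that of the matrix list in fibroblasts had the opposite sign in the pair without PBDEs.

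**Figure D5:**
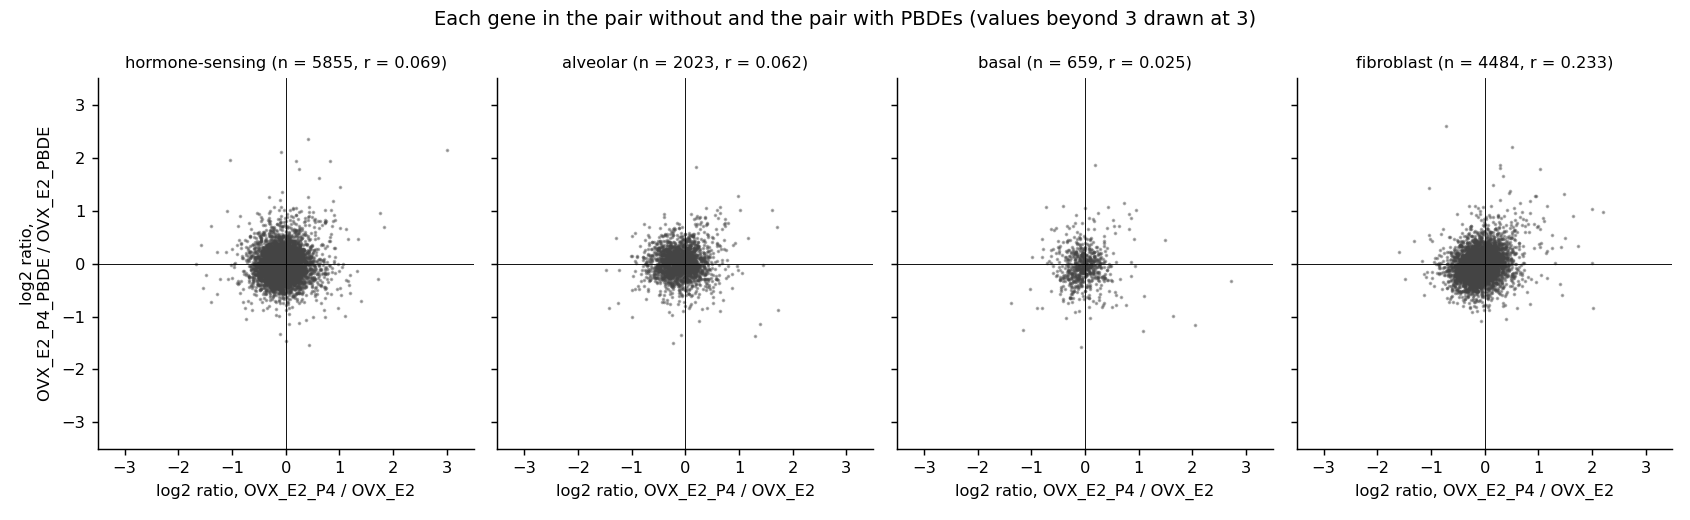
Log2 ratio of each gene with at least 200 UMIs in both pairs, OVX_E2_P4 over OVX_E2 on the horizontal axis and OVX_E2_P4_PBDE over OVX_E2_PBDE on the vertical axis, 1 panel per gate; each point is a gene, and values beyond 3 are drawn at 3. The clouds are round in the 3 epithelial gates (r of 0.069, 0.062 and 0.025) and slightly drawn out in fibroblasts (r of 0.233).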

How the data were processed

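The authors processed each library, made with the droplet-based 10x Genomics 3′ chemistry, with Cell Ranger 2.0.0 against mm10, per the submitters' processing notes, and deposited whole-number UMI counts per gene and cell barcode, without normalization. The counts analysed here hold filtered barcodes. The study describes a doublet caller, and no doublet caller was run here. The upper limits of the hormone-sensing, alveolar and fibroblast gates were the only guard. The basal gate had no upper limit, and the luminal gates had none on basal or fibroblast genes. UMI counts were summed over the cells of a gate and scaled to CPM. Ratios have exact conditional binomial intervals, shares have exact Clopper-Pearson intervals, and differences of shares combine these. A count of 0 was set to a floor of 3 UMIs in the ratio, while the interval used the counts as they were. Intervals cover counting error only, and with 1 library per group no test was made, so depth, 29590862 and 32648416 UMIs, limits counting precision but not the variation between animals.

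The named genes were, per gate, the 6 highest and 6 lowest genes ranked by the interval bound nearest to 1, up to 2 per side of each gene list by the same ranking, and fixed hormone and lineage genes. Acsl4, Hells, Col12a1, Col8a1, Csn1s2a, Ly6a, Cd14 and the genes past 1.5-fold in all gates were named after their values were seen. The gates, lists and comparisons were chosen with earlier results of these data known. Of 604 list entries 601 matched a gene in the files. Gate genes were not counted as findings. Shares of cells with a UMI used cells thinned to 3000 UMIs. Promoter sequences came from RefSeq (GRCm38.p6). The ratio step was tested on simulated data. Alternatives changed the minimum count, the scaling, the gates, the mitochondrial limit and the cells used; 3 were added after the data were seen. Python 3.11.15, numpy 2.4.6, scipy 1.17.1 and pandas 2.3.3 were used.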

Additional observations from a re-analysis of the deposited data

Results flagged for a closer look

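Of the 48 leading genes of the 4 gates, 9 were at least 1.5-fold changed in opposite directions by progesterone in the pair without and the pair with PBDEs, with both intervals leaving out 1. The difference between the pairs was not tested, since each group is 1 library. In the hormone-sensing gate Cdkn2a had a ratio of 5.81 without and 0.196 with PBDEs. In the alveolar gate Hspa1b had 3.29 and 0.545, and Ccl5 had 3.82 and 0.567. In the basal gate Ltf had 8.05 and 0.438, Hspa1b 4.13 and 0.446, and Il17b 3.10 and 0.501. Also in the basal gate, Cd74 had 0.211 without and 3.90 with PBDEs and Ccl7 had 0.258 and 1.71. In OVX_E2, 92 of 127 Cd74 UMIs and 47 of 87 Ccl7 UMIs were in 1 barcode. In the fibroblast gate Mrgprg had 4.04 and 0.560.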

How the results depend on the processing

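Of 493 recomputed ratios of the 48 leading genes, 413 stayed within the counting interval of the reported ratio, 77 moved out of it and 3 reversed. The other named genes were not part of this count. The counts of genes past 2-fold moved furthest with the minimum count and with the subtraction of the lowest level of the other gates. Without a minimum, 1644 genes were higher and 1422 lower in the hormone-sensing gate, 550 and 3373 in the alveolar, 859 and 2516 in the basal and 2111 and 671 in the fibroblast gate. With a minimum of 200 UMIs the numbers were 31 and 16, 19 and 23, 7 and 8, and 27 and 12. With the lowest level of the other gates subtracted they were 1336 and 1538, 907 and 1932, 468 and 657, and 997 and 1126. With thinned cells, 45 hormone-sensing and 77 alveolar genes were lower, 17 basal genes were higher and 22 lower, and 53 fibroblast genes were higher. Without the fifth of cells with most UMIs, 88 alveolar genes were lower and 32 basal genes higher. Without the richest cell of each gene, 177 alveolar and 75 basal genes were higher, and without proliferating cells 82 alveolar genes were lower. In the basal gate 37 genes were lower with median ratio scaling, 38 with stricter gates and 34 with cells of exactly 1 gate, and with stricter gates 44 fibroblast genes were higher. Apart from the settings that count fewer cells or genes and the floor of 3 UMIs without a minimum, the cause was not tested.

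The alveolar and fibroblast differences in gate share kept their direction under every alternative run. The basal one was -0.0512 points with at most 5% mitochondrial UMIs, and the hormone-sensing one, whose interval includes 0, was 0.300 points without the fifth of cells with most UMIs. With stricter gates they were -7.46 (hormone-sensing), 9.09 (alveolar) and -13.6 points (fibroblast). Without the fifth of cells with most UMIs the alveolar difference was 10.1 and the fibroblast one -22.3 points, and -12.0 points without the limit on Epcam and Krt18. Directions reversed for the interferon list of the hormone-sensing gate (median log2 ratio -0.0092 with thinned cells), the matrix protease list of the basal gate (0.057 with cells of exactly 1 gate), Reg3g in the alveolar gate (log2 ratio 0.0075 without the richest cell), and in the basal gate Ccl5 (1.98 without the richest cell) and Ccl7 (0.030 with stricter gates). No paired analysis was possible because each group is 1 library and no replicate numbers link the groups, and no replicate could be left out.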
